A study of Homo sapiens with 12 samples.

Results

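The comparison described here sets the control libraries of 2 human kidney cancer lines against each other, to describe how the lines differ before miR-29 is changed. It holds 5 of the 12 libraries of the series, taken by their labels: the 2 A-498 libraries from cells given a control mimic (replicates 1 and 3) and the 3 ACHN libraries from cells given a control inhibitor (replicates 1, 2 and 3). A mimic is a synthetic RNA that acts like a microRNA and an inhibitor is one that blocks it, and the control versions are not aimed at miR-29. Both were transfected at 10 nM, and RNA was extracted 48 h later for stranded sequencing after removal of ribosomal RNA. The type of control oligonucleotide changed with the line, so line and oligonucleotide cannot be told apart here. Each line is a single established line, so the libraries are repeat cultures of 1 line and the p-values measure only the spread between such cultures.

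A-498 and ACHN are adherent lines from human renal carcinoma that are widely used as models of the disease. Renal cell carcinoma is thought to arise from the epithelium of the nephron, mostly the proximal tubule. In the clear cell type, loss of VHL, the subunit that marks the alpha subunits of the hypoxia-inducible factors (HIF) for degradation, leaves HIF target genes on in normal oxygen. A-498 is known as a line with defective VHL and ACHN as a line with intact VHL, and both lines are used to study miR-29, a microRNA family that represses collagen and other matrix genes.

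Reads in genes numbered 55398804 and 60392263 in the A-498 libraries and from 39919554 to 48626762 in the ACHN libraries. The first principal component of log2 expression carried 96.6% of the variance and separated the lines, and replicate libraries correlated at 0.9986 to 0.9988 (Pearson, across genes, which are not independent replicates). The biological coefficient of variation, the spread between replicate libraries beyond counting error, was 4.44%. Of the 6 genes taken as renal epithelial markers, 5 passed the filter on low counts, PAX8, PAX2, LHX1 and CDH16 among them, while EMX2 had 0 reads in all 5 libraries. Levels are given in CPM, a gene's reads per library scaled to a common size with TMM factors, which correct for library composition. The 14 immune markers summed to 2.9 to 3.21 CPM in A-498 and 5.88 to 7.54 CPM in ACHN, 2 passed the filter (CD14 and ITGAM), and CD3E, MS4A1 and NKG7 had 0 reads in all 5 libraries. Of 12 endothelial, 10 fibroblast, 12 hepatocyte and 12 neural markers, 4, 5, 3 and 8 passed the filter, among them THY1, POSTN, SERPINA1 and NEFL. Their sums were 32.6 to 39.6 CPM in A-498 and 25.8 to 28.5 CPM in ACHN for endothelial markers, 55.2 to 56.9 CPM and 199.9 to 223 CPM for fibroblast markers, 16.0 to 16.6 CPM and 17.0 to 18.6 CPM for hepatocyte markers, and 372 to 375 CPM and 135 to 139 CPM for neural markers. The part that other cell types could have in these sums was not tested, and in such bulk libraries fewer cells of a type and less RNA per cell cannot be told apart.

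Most genes differed between the lines. The quasi-likelihood test of edgeR was applied to 19689 genes, of which 15708 (79.8%) had an adjusted p under 0.05, 8080 (41.0%) higher in A-498 and 7628 (38.7%) higher in ACHN. A difference of at least 2-fold was called for 4255 genes higher in A-498 (21.6%) and 3242 higher in ACHN (16.5%). These shares are the background against which the counts of each gene group below are read. The median absolute log2 difference was 0.71 and the median signed difference, A-498 minus ACHN, was 0.02. In all that follows a log2 difference is A-498 minus ACHN, given with its standard error.

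Some genes were read in 1 line only. At least 1 CPM in every library of a line, with no more than 3 reads in every library of the other, was found for 334 genes in A-498 (230 protein-coding and 71 long non-coding RNAs) and 249 genes in ACHN (193 protein-coding and 33 long non-coding RNAs). The other line had 0 reads in every library for 127 and 104 of these. For genes at 0, a fold is given as a lower bound, the lowest CPM in the line that has the gene over the CPM that 3 reads would give in a library of the other line (0.0495 to 0.0754 CPM). These bounds cover counting error only.

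The 10 protein-coding genes with the largest difference on the A-498 side, among genes at 20 CPM or more there, were MTAP, KLHL9, INHBB, MYADM, FOCAD, HACD4, ADAMTS2, POSTN, BHMT2 and PREX2. All 3 ACHN libraries had 0 reads of the first 9. PREX2, an activator of the small GTPase Rac, had 1 read in 1 ACHN library against 153 and 161 CPM in A-498 (ratio of pooled counts 20379, exact 95% interval 3657 to 804983). INHBB, which encodes a subunit of activin B, was read at 102 and 94.0 CPM, at least 1248-fold higher in A-498. ADAMTS2, the enzyme that trims procollagen, was at 72.2 and 70.3 CPM, at least 932-fold higher.

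On the ACHN side the 10 genes included MT1E, GSTP1, CCND2, MT1M, COCH, SLC34A2, FABP3, TBX18 and GYPC, and both A-498 libraries had 0 reads of all 10. MT1E, a metallothionein that binds zinc and copper, was at 579, 611 and 545 CPM in ACHN, at least 10091-fold higher. GSTP1, a glutathione transferase, was at 344, 334 and 346 CPM, at least 6171-fold higher. CCND2, the G1 cyclin D2, was at 239, 249 and 239 CPM, at least 4422-fold higher. MT1E and MT1M are near copies of other metallothionein genes, so reads may be shared among them.

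**Figure D1:**
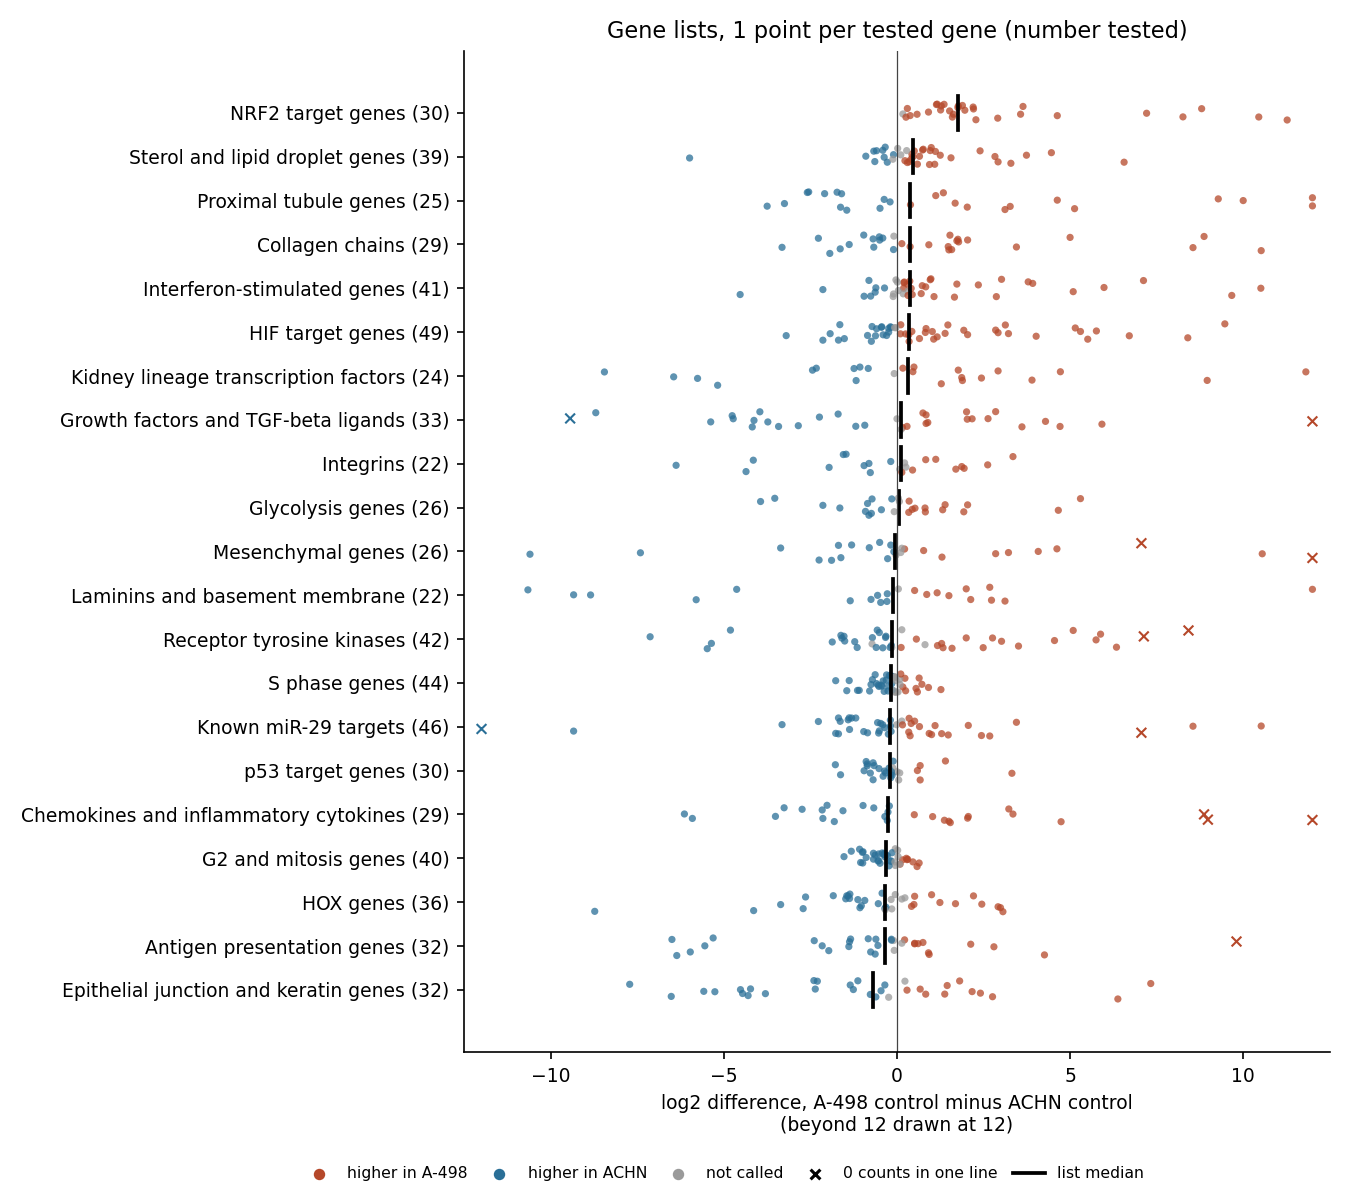
Each point is a tested gene of the list named at the left (number of tested genes in brackets), placed by its log2 difference, A-498 control minus ACHN control (2 and 3 libraries), and coloured by its call in edgeR at an adjusted p under 0.05. Black bars are list medians, and crosses are genes with 0 reads in 1 line, whose position depends on the fit and is not a measured fold; differences beyond 12 are drawn at 12. NRF2 target genes stand to the right with a median of 1.77, while the epithelial list has the lowest median, -0.69.

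The 9p21 region of chromosome 9 showed a mutually exclusive pattern. This stretch holds CDKN2A and CDKN2B, which encode inhibitors of the G1 kinases CDK4 and CDK6 and the p53 activator ARF, beside MTAP, an enzyme of methionine salvage, and the type I interferon genes. MTAP (chr9:21802636-21937651, GRCh38) had 8720 and 10150 reads in the A-498 libraries and 0, 0 and 0 in the ACHN libraries, at least 2085-fold higher in A-498. The silence in ACHN ran from MLLT3 to MTAP, a span of 1.6 Mb. MLLT3, a transcription elongation factor subunit, had 5979 and 6640 reads against 0, 1 and 0. FOCAD (4379 and 4877 reads), HACD4 (3907 and 4530 reads), KLHL9 (6498 and 7278 reads) and the long non-coding MIR31HG (635 and 610 reads) were all at 0 in ACHN. IFNE, an epithelial interferon, had 40 and 54 reads in A-498 and 0 in ACHN, and none of the other type I interferon genes had more than 2 reads in any of the 5 libraries.

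Immediately beyond MTAP the pattern was the other way round. CDKN2A (chr9:21967752-21995301) had 0 reads in both A-498 libraries and 38, 24 and 31 reads in ACHN, at least 10.6-fold higher in ACHN. CDKN2B (chr9:22002903-22009305) had 0 reads in both A-498 libraries and 399, 397 and 353 reads in ACHN, at least 153-fold higher. The annotated end of MTAP lies 57.6 kb from the annotated start of CDKN2A. CDKN2A is on the minus strand, so its body lies within that distance. Farther out the pattern was mixed. DMRTA1, beyond CDKN2B, was read in both lines, at 43.5 and 46.0 CPM in A-498 and 11.6, 11.4 and 10.9 CPM in ACHN, and RPS6, a ribosomal protein gene before MLLT3, did not pass the test (log2 difference 0.09 ± 0.0406, edgeR adjusted p = 0.0533). SLC24A2, between RPS6 and MLLT3, had 5 and 4 reads in A-498 and 205, 214 and 174 reads in ACHN. ELAVL2, beyond DMRTA1, had 513 and 605 reads in A-498 and 2, 0 and 3 reads in ACHN.

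The same genes were silent in the other libraries of each line. In the 2 A-498 libraries given the miR-29 mimic, CDKN2A and CDKN2B again had 0 reads, and in the 3 ACHN libraries given the miR-29 inhibitor, MLLT3, FOCAD, HACD4, KLHL9 and MTAP had 0 reads in each. DNA copy number was not measured in these data.

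**Figure D2:**
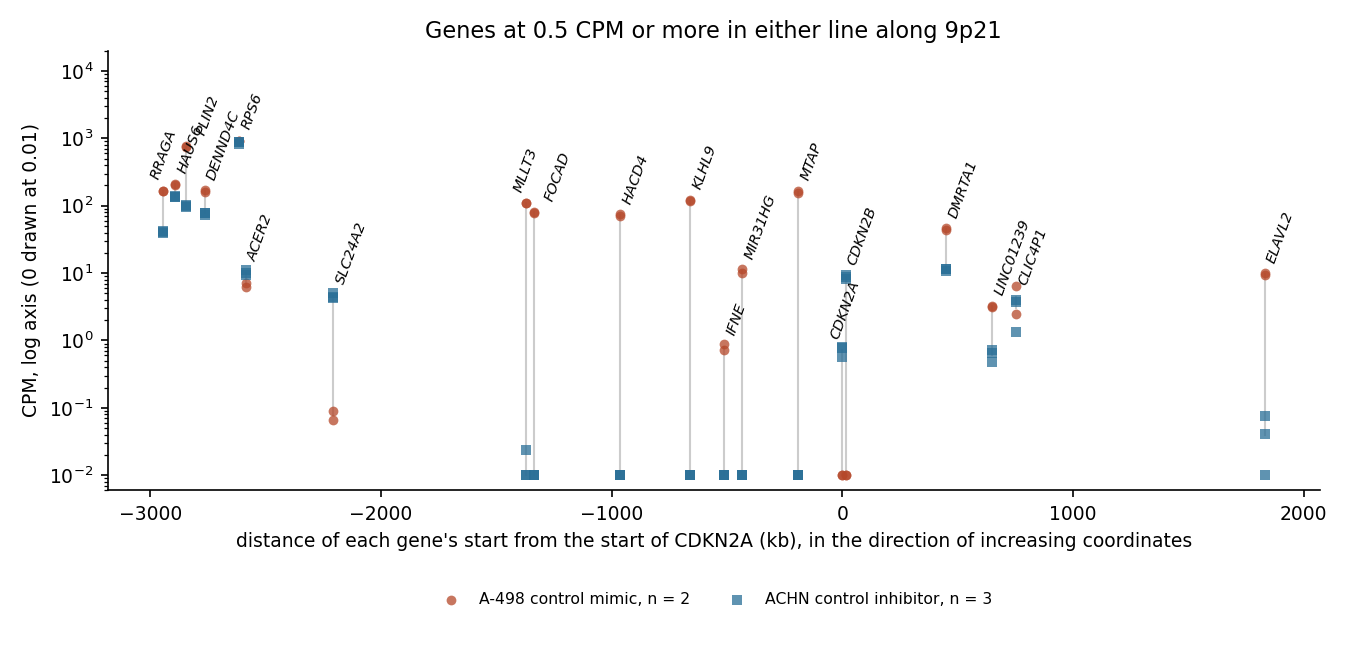
Genes of 9p21 at 0.5 CPM or more in either line are placed by the distance of their start from the annotated start of CDKN2A, in kb, and the log axis gives CPM in each library (0 drawn at 0.01). From MLLT3 to MTAP the A-498 points stand between 0.721 (IFNE) and 167 CPM (MTAP) with ACHN at or near 0, and at CDKN2A and CDKN2B the lines change places.

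CDKN2A, CDKN2B and MTAP belong to a joint list of G1 regulators and 9p21 genes, MTAP as a 9p21 gene only. Cyclins D1, D2 and D3 activate CDK4 and CDK6 and so release E2F factors from the retinoblastoma protein. All 21 genes in the joint list were tested. In A-498 8 were higher, 4 by at least 2-fold (19.0%, MTAP included, against 21.6% of all genes). In ACHN 10 were higher, 5 by at least 2-fold (23.8%, CDKN2A and CDKN2B included, against 16.5% of all genes). CDK6 was at 238 and 272 CPM in A-498 and 659, 727 and 644 CPM in ACHN, 2.65-fold higher in ACHN (log2 difference -1.41 ± 0.0553, edgeR adjusted p = 3.3e-15). CDK4 was at 211 and 209 CPM against 388, 376 and 381 CPM (-0.86 ± 0.0358, edgeR adjusted p = 8.6e-15). CDKN2C, another inhibitor of these kinases, was 4.86-fold higher in A-498 (57.1 against 11.7 CPM). CCND1 differed little, at 258 and 252 CPM in A-498 and 283, 291 and 299 CPM in ACHN (-0.19 ± 0.0367, edgeR adjusted p = 8.76e-05). RB1 did not pass the test.

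HIF target genes were split between the lines, with the larger differences on the A-498 side. HIF-1 and HIF-2 pair an alpha subunit with ARNT and switch on genes of glycolysis, angiogenesis and pH control when oxygen is low, and the prolyl hydroxylases (EGLN genes) and VHL remove the alpha subunits when oxygen is present. Of 50 HIF target genes, 49 passed the filter; 28 were higher in A-498 (19 by at least 2-fold, 38.8% of those tested) and 19 higher in ACHN (6 by at least 2-fold, 12.2%), with a median log2 difference of 0.34. The shares over all genes were 21.6% and 16.5%.

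The pathway's own components moved less. VHL messenger RNA was at 23.6 and 24.1 CPM in A-498 and 39.7, 40.1 and 39.6 CPM in ACHN (-0.74 ± 0.0551, edgeR adjusted p = 1.46e-10). HIF1A was at 418 and 438 CPM against 500, 482 and 488 CPM (-0.20 ± 0.0365, edgeR adjusted p = 5.93e-05). EPAS1, which encodes HIF-2 alpha, was at 99.5 and 93.0 CPM against 118, 121 and 121 CPM (-0.32 ± 0.043, edgeR adjusted p = 9.95e-07). All 3 transcripts were thus lower in A-498, with no overlap between the lines, by no more than 1.67-fold. Of the 13 tested components, 4 were higher in A-498 and 8 in ACHN, against 41.0% and 38.7% of all genes. Only 1 component differed by at least 2-fold. That gene was EGLN3, a prolyl hydroxylase that is itself induced by HIF, at 428 and 425 CPM in A-498 and 0.124, 0.143 and 0.0502 CPM in ACHN (11.92 ± 0.0844, edgeR adjusted p = 6.87e-27).

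Among the targets, the carbonic anhydrases CA9 and CA12, which acidify the surroundings of the cell, were both higher in A-498. CA9 was at 7.3 and 7.14 CPM against 0.124, 0.167 and 0.1 CPM (5.76 ± 0.197, edgeR adjusted p = 3.33e-16), and CA12 at 1018 and 1005 CPM against 2.94, 3.34 and 2.71 CPM (8.40 ± 0.0557, edgeR adjusted p = 2.78e-27). CXCR4, a chemokine receptor, was at 95.1 and 93.7 CPM against 0.207, 0.0955 and 0.0754 CPM, 9.47 higher on the log2 scale. The lactate exporter SLC16A3 was 39.3-fold higher in A-498, the stress gene NDRG1 35.5-fold, and VEGFA, the main angiogenic ligand, 7.2-fold (413 and 397 CPM against 54.9, 55.4 and 58.3 CPM). The glucose transporter SLC2A1 was 2.62-fold higher.

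Other HIF targets were higher in ACHN. NDUFA4L2, a mitochondrial protein that is a marker of clear cell tumours, was at 0.162 and 0.148 CPM in A-498 and 1.47, 1.53 and 1.33 CPM in ACHN (-3.20 ± 0.291, edgeR adjusted p = 3.22e-09). HK2, which traps glucose, was 4.42-fold higher in ACHN and PDK1, which holds pyruvate back from the mitochondria, 3.14-fold higher. The collagen cross-linker LOX and the lipase inhibitor ANGPTL4 were 3.23-fold and 2.87-fold higher in ACHN. VLDLR and PFKFB3 did not pass the test.

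The HIF core letters ACGTG or GCGTG, searched on both strands, lay in at least 1 RefSeq promoter window (250 bases before to 50 after a gene's start) of 40 of the 41 HIF target genes that have a window, or in 80.6% of their 72 windows, against 48.4% of 35116 windows of all genes. A gene with several starts has several windows, and 62.3% of 15251 protein-coding genes had a match. The windows of CA9 and SLC2A1 are shown because these genes were among the targets higher in A-498; the capitals mark the match, which for CA9 reads ACGTG on the other strand. A match is a description of letters and not a measured binding site.
CA9, chr9:35673898-35673927, plus strand, match starting at base -18: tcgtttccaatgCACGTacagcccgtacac
SLC2A1, chr1:42958826-42958855, minus strand, match starting at base 26: tagcaacagcgaGCGTGccggtcgctagtc

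The clearest one-sided group was that of NRF2 target genes. NRF2, encoded by NFE2L2, is the transcription factor of the oxidative stress response; KEAP1 keeps it low, and its targets make glutathione and NADPH, reduce carbonyls and export conjugates. All 30 genes of the list were tested, 29 were higher in A-498 and 0 in ACHN, and 24 (80.0%) were at least 2-fold higher in A-498 against 21.6% of all genes. The median log2 difference was 1.77. The summed level of the list was 25367 to 25791 CPM in A-498 and 5000.3 to 5346 CPM in ACHN. The list was chosen with earlier results of these data known, so these counts hold for its members only. Glutathione transferases outside the list went both ways. GSTP1 had 0 reads in both A-498 libraries and 344, 334 and 346 CPM in ACHN, whereas GSTM1, GSTM4 and MGST1 were higher in A-498.

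The aldo-keto reductases, which reduce aldehydes and steroids, stood apart. AKR1B10 was at 4713 and 4641 CPM in A-498 and 4.24, 3.17 and 2.44 CPM in ACHN (10.45 ± 0.0878, edgeR adjusted p = 6.92e-26). AKR1C1 was at 1750.3 and 1777 CPM against 4.36, 3.63 and 3.82 CPM (8.80 ± 0.0559, edgeR adjusted p = 1.55e-27). AKR1C2 and AKR1C3 were 11.27 and 7.21 higher on the log2 scale. AKR1C genes are close copies of each other, so the split of reads between them is uncertain, although each was far higher in A-498.

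Members with other roles were also higher in A-498. The conjugate exporter ABCC2 was at 292 and 289 CPM against 1.06, 0.835 and 0.929 CPM (8.26 ± 0.066, edgeR adjusted p = 3.71e-26). SLC7A11, which imports cystine for glutathione, was 7.53-fold higher in A-498, and GCLM, a subunit of the first enzyme of glutathione synthesis, 3.69-fold higher. In the pentose phosphate pathway, a source of NADPH, PGD and TALDO1 were 2.20 and 2.21 higher on the log2 scale. Thioredoxin reductase TXNRD1 was 3.42-fold and the quinone reductase NQO1 2.4-fold higher. NFE2L2 itself was at 169.6 and 179 CPM against 148, 146 and 143 CPM (0.26 ± 0.0382, edgeR adjusted p = 3.99e-06) and KEAP1 was 1.23-fold higher in A-498. HMOX1, the haem-degrading enzyme, was the only member not called, at 160.2 and 148 CPM against 145, 153 and 112 CPM (0.17 ± 0.0802, edgeR adjusted p = 0.0594).

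The letters of the antioxidant response element, TGACNNNGC on either strand, chosen after the values of the list had been seen, lay in a promoter window of 9 of the 23 NRF2 target genes that have one, or in 34.5% of their 29 windows against 13.3% of all windows. Counted by gene, this was 39.1% of the list against 18.0% of 15251 protein-coding genes. The windows of GCLM and TXNRD1 are shown as members of the list with a match, in capitals; both genes were higher in A-498, as were members with no match in these windows.
GCLM, chr1:93909445-93909474, minus strand, match on the other strand starting at base -34: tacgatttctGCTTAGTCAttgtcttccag
TXNRD1, chr12:104215670-104215699, plus strand, match starting at base -99: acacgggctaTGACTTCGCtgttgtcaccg

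**Figure D3:**
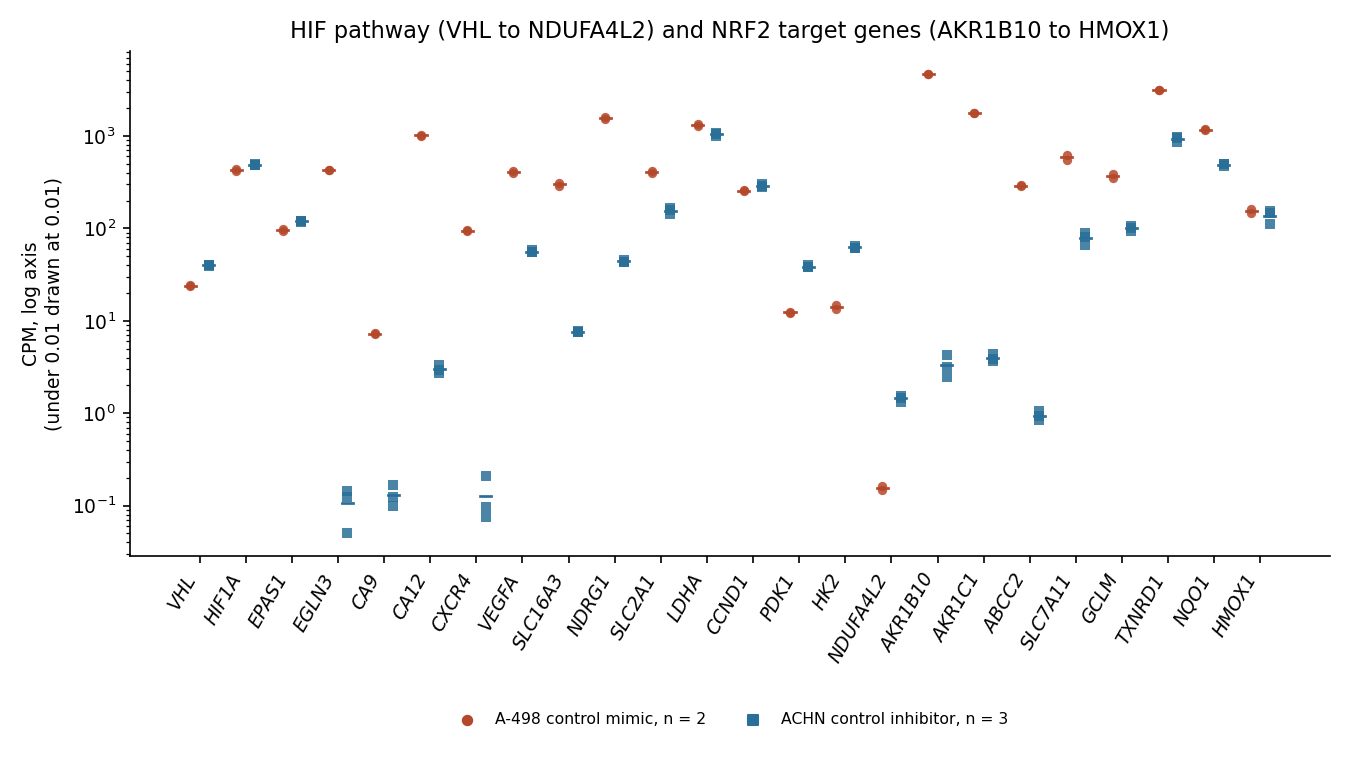
CPM of HIF pathway and target genes (left) and NRF2 target genes (right) in each A-498 control (n = 2) and ACHN control (n = 3) library, on a log axis, with a bar at the mean. VHL, HIF1A and EPAS1 lie close together in the lines, EGLN3, CA9 and CXCR4 differ by orders of magnitude, and of the NRF2 targets drawn only HMOX1 overlaps.

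Both lines kept a renal transcription factor profile, with different members. Of 32 kidney lineage transcription factors, 24 were tested, 13 were higher in A-498 (10 by at least 2-fold) and 10 higher in ACHN (9 by at least 2-fold), so 41.7% and 37.5% differed by at least 2-fold against 21.6% and 16.5% of all genes. PAX8, a factor of the nephric lineage used to identify renal carcinoma, was at 76.3 and 68.8 CPM in A-498 and 170.2, 168 and 177 CPM in ACHN (-1.24 ± 0.0471, edgeR adjusted p = 1.83e-15). PAX2 was 5.44-fold higher in ACHN, while LHX1 was 3.41-fold higher in A-498. HNF4A, the master regulator of proximal tubule differentiation, was at 95.6 and 89.0 CPM in A-498 and 0, 0 and 0.0754 CPM in ACHN, where 3 reads were found in 1 library (ratio of pooled counts 3993, exact 95% interval 1366 to 19367). MAF was 8.96 higher on the log2 scale in A-498, and SIM2 and IRX2 were higher in ACHN, with log2 differences of -6.45 and -8.45.

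Proximal tubule genes were divided in the same way. Of 40, 25 passed the filter, and of these 13 were higher in A-498 (12 by at least 2-fold) and 12 in ACHN (9 by at least 2-fold), with a median log2 difference of 0.39. The brush border peptidases ANPEP and MME were found almost only in A-498. ANPEP was at 130.3 and 117 CPM against 0, 0.0477 and 0 CPM (ratio of pooled counts 8011, exact 95% interval 2217 to 66152), and MME at 79.9 and 83.0 CPM against 0.0621, 0.0955 and 0.0754 CPM (10.0 ± 0.116, edgeR adjusted p = 8.66e-24). CDH6, the cadherin of the proximal tubule, was at 479 and 521 CPM against 0.103, 0.0955 and 0.1 CPM (12.25 ± 0.0864, edgeR adjusted p = 6.87e-27).

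On the other side, HAVCR1, which is induced in injured tubules, was at 96.1 and 97.6 CPM in A-498 and 314, 313 and 337 CPM in ACHN (-1.73 ± 0.0419, edgeR adjusted p = 1.04e-18). The transpeptidase GGT1 and the cystine transporter subunit SLC3A1 were 6.03-fold and 13.4-fold higher in ACHN. Among solute transporters, SLC4A4, which moves bicarbonate, was 2.17-fold higher in A-498, and SLC13A3, which takes up dicarboxylates, was 3.03-fold higher in ACHN. SLC34A1 and SLC5A2, the phosphate and glucose transporters, reached at most 0.517 and 0.628 CPM in any library, and SLC22A6, SLC22A8 and SLC13A1 did not pass the filter.

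Genes of the distal nephron and collecting duct were sparse: 16 of 32 passed the filter, 7 were higher in A-498 and 5 in ACHN, all by at least 2-fold. This was 43.8% and 31.2%, against 21.6% and 16.5% of all genes. CLDN16, the tight junction protein of the thick ascending limb that passes magnesium, was at 0.0901 and 0.165 CPM in A-498 and 279.8, 273 and 270.1 CPM in ACHN (-11.02 ± 0.094, edgeR adjusted p = 8.74e-26). MAL, a lipid raft protein, had 0 reads in A-498 and 12.9, 12.8 and 12.6 CPM in ACHN, at least 232-fold higher. Carbonic anhydrase CA2 was 12.9-fold and the secreted phosphoprotein SPP1 2.21-fold higher in A-498. UMOD, the marker of the thick ascending limb, had 0 reads in all 5 libraries.

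Epithelial genes were mostly higher in ACHN. Of 40 genes for junctions and keratins, 32 were tested, 11 were higher in A-498 (8 by at least 2-fold) and 19 higher in ACHN (15 by at least 2-fold, 46.9% against 16.5% of all genes), with a median log2 difference of -0.69. EPCAM, an epithelial adhesion molecule, was at 0.306 and 0.181 CPM in A-498 and 51.6, 49.8 and 52.6 CPM in ACHN (-7.72 ± 0.118, edgeR adjusted p = 5.75e-22). E-cadherin, CDH1, was low in both lines, at 0.396 and 0.214 CPM against 7.72, 6.16 and 7.08 CPM (-4.52 ± 0.202, edgeR adjusted p = 2.81e-14). KRT19 was at 11.2 and 10.6 CPM against 409, 404 and 435 CPM (-5.26 ± 0.0544, edgeR adjusted p = 1.58e-24).

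The simple keratins KRT8 and KRT18 were expressed in both lines and 1.7-fold and 1.52-fold higher in ACHN. KRT7 was 19.7-fold, the protease inhibitor SPINT1 95.3-fold and the tight junction protein CLDN1 4.92-fold higher in ACHN. Exceptions in the other direction were CLDN4, at 37.4 and 35.0 CPM in A-498 against 0.228, 0.358 and 0.0754 CPM in ACHN (7.33 ± 0.14, edgeR adjusted p = 2.03e-20), the desmosomal cadherin DSC2, and the epithelial factor ELF3 (5.29-fold higher in A-498). The epithelial regulators GRHL2, OVOL1 and ESRP1 did not pass the filter.

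Mesenchymal genes showed no common direction. Of 30, 26 were tested, with 10 higher in A-498 and 13 in ACHN, 8 each by at least 2-fold, and the median was -0.06. The 2-fold share was 30.8% in each direction, against 21.6% and 16.5% of all genes. THY1, a surface glycoprotein of fibroblasts and stem cells, was at 0.18 and 0.0825 CPM in A-498 and 197, 196 and 219.8 CPM in ACHN (-10.60 ± 0.121, edgeR adjusted p = 6.94e-24). Fibronectin, FN1, was 4.76-fold higher in ACHN, at 511 ± 18.2 CPM (SD, n = 2) against 2434 ± 50.6 CPM (SD, n = 3). CDH11, a mesenchymal cadherin, was found in A-498 at 48.7 and 50.9 CPM and had at most 3 reads in an ACHN library (ratio of pooled counts 1621, exact 95% interval 633 to 5950.3). SNAI1, a repressor of CDH1, was 24.3-fold higher in A-498. N-cadherin CDH2 and vimentin VIM were high in both lines and differed by 1.16-fold (A-498 higher) and 1.21-fold (ACHN higher).

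The lists of tumour type markers followed the same genes. Of 12 clear cell carcinoma markers, all tested, 6 were higher in A-498 (EGLN3, MME, CA9, PLIN2, VEGFA and HILPDA) and 6 in ACHN (NDUFA4L2, ANGPTL4, NNMT, PAX8, CAV1 and VIM). Of 10 papillary carcinoma markers, 9 were tested, 2 were higher in A-498 (CLDN4 and AMACR) and 6 in ACHN (EPCAM, ITGB4, KRT19, KRT7, MET and WNK4), with a median of -0.60. These genes were chosen with earlier results of these libraries known and share members with the lists above. At any fold 41.0% and 38.7% of all genes were higher in A-498 and ACHN.

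**Figure D4:**
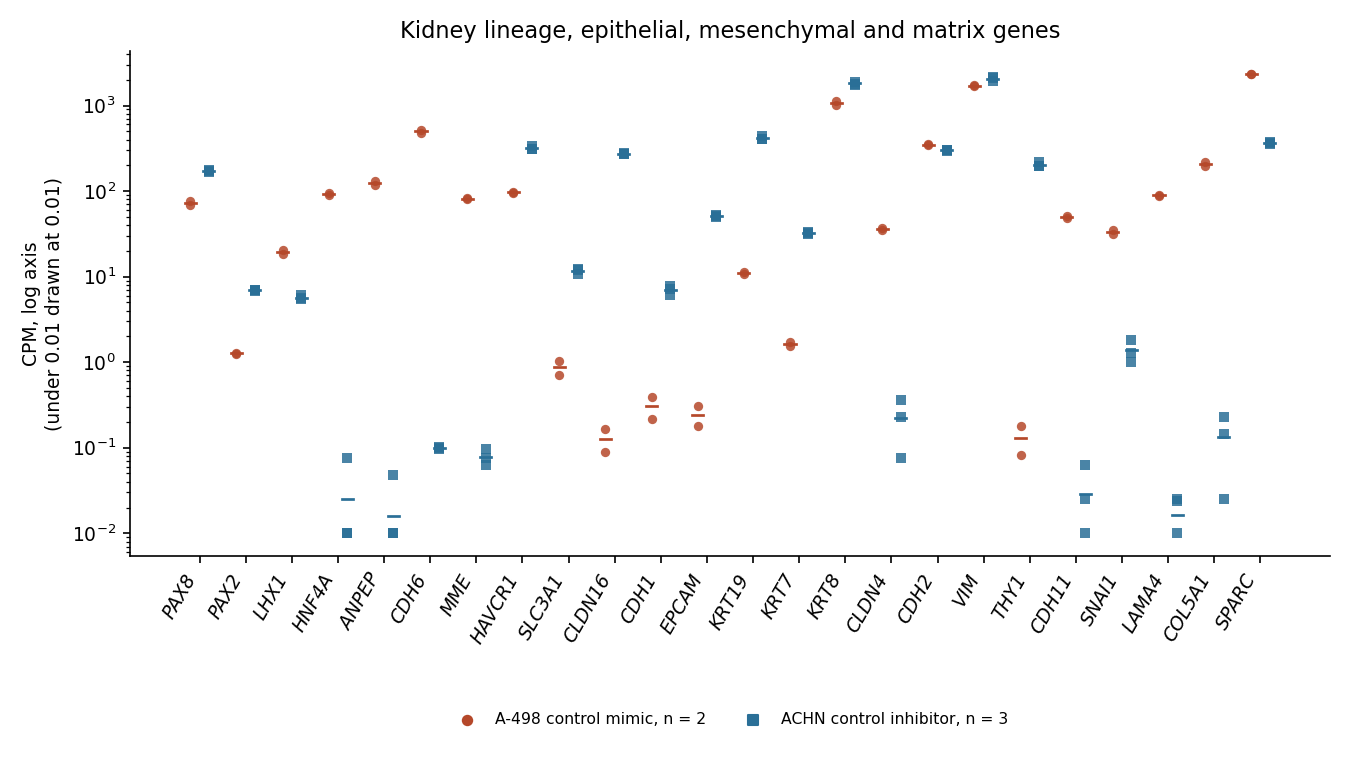
CPM in each A-498 control (n = 2) and ACHN control (n = 3) library, on a log axis with a bar at the mean, for kidney lineage, epithelial, mesenchymal and matrix genes (values under 0.01 drawn at 0.01). HNF4A, ANPEP, CDH6 and MME are near 0 in ACHN, CLDN16, EPCAM and THY1 are near 0 in A-498, and KRT8, CDH2 and VIM are high in both.

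Matrix genes are the best known targets of miR-29, so their level before any change of miR-29 is of interest. The 3 members of the family share bases 2 to 8, the seed that pairs with target messenger RNAs, shown here in capitals. The sequences are RefSeq mature forms on GRCh38.p14, all on the minus strand, and miR-29b is encoded at 2 places.
miR-29a-3p, chr7:130876748-130876769: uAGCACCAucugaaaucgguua
miR-29b-3p, chr7:130877467-130877489 and chr1:207802450-207802472: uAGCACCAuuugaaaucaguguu
miR-29c-3p, chr1:207801865-207801886: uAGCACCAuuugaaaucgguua

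The mature forms are too short for these libraries, and the precursor genes were not analysed here. MIR29B2CHG, the host transcript of miR-29b-2 and miR-29c, was at 13.4 and 14.0 CPM in A-498 and 4.51, 5.01 and 4.6 CPM in ACHN (1.54 ± 0.0818, edgeR adjusted p = 5.19e-13). LINC-PINT, which lies near the miR-29a and miR-29b-1 locus, was at 11.0 and 13.0 CPM against 17.4, 18.9 and 15.8 CPM (-0.53 ± 0.0803, edgeR adjusted p = 4.41e-06). The transcripts read at or near the 2 loci thus differed in opposite directions.

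Of 50 known miR-29 targets, 46 were tested, 19 were higher in A-498 (11 by at least 2-fold, 23.9%) and 25 in ACHN (13 by at least 2-fold, 28.3%), with a median of -0.19. Over all genes the 2-fold shares were 21.6% and 16.5%. The targets did not share a direction. SPARC, a matrix protein that binds collagen, was at 2352 and 2333 CPM in A-498 and 361, 356 and 377 CPM in ACHN (2.68 ± 0.0373, edgeR adjusted p = 1.46e-22), and the collagen cross-linker LOXL2 at 675 and 649.6 CPM against 122, 118 and 127 CPM. The DNA methyltransferases, also targets, went opposite ways, DNMT3B 4.18-fold higher in A-498 and DNMT3A 1.38-fold higher in ACHN. MCL1, which protects from apoptosis, was 1.45-fold higher in ACHN.

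Collagen chains tended towards A-498. Of 44 chains, 29 were tested, 16 were higher in A-498 (13 by at least 2-fold, 44.8% against 21.6% of all genes) and 12 in ACHN (5 by at least 2-fold), and the median was 0.38. On the ACHN side the 2-fold share was 17.2%, against 16.5% of all genes. COL5A1, a chain of the fibril-nucleating collagen V, was at 218 and 197 CPM in A-498 and 0.228, 0.143 and 0.0251 CPM in ACHN (10.52 ± 0.123, edgeR adjusted p = 1.02e-23), while its partner COL5A2 was 4.83-fold higher in ACHN. COL1A1 was 10.9-fold higher in A-498 at a low level (15.5 and 13.7 CPM against 1.2, 1.65 and 1.16 CPM), and its partner COL1A2 and COL3A1 did not pass the filter. The basement membrane chains COL4A1 and COL4A2 were 1.33-fold and 1.43-fold higher in ACHN. In collagen VI, COL6A1 and COL6A2 were 3.32-fold and 2.83-fold higher in A-498, and COL6A3 was 10.1-fold higher in ACHN.

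Laminins are trimers of an alpha, a beta and a gamma chain. Of 23 laminin and basement membrane genes, 22 were tested, 10 were higher in A-498 (8 by at least 2-fold) and 11 in ACHN (6 by at least 2-fold), and the median was -0.12. The 2-fold shares were 36.4% and 27.3%, against 21.6% and 16.5% of all genes. LAMB3, the beta chain of an epithelial laminin, was 8.71-fold higher in A-498, and LAMA3, the alpha chain of the same trimer, was 1.38-fold higher in ACHN. LAMA4 was at 90.5 and 88.2 CPM in A-498 and had at most 1 read in an ACHN library (ratio of pooled counts 5805, exact 95% interval 1607 to 47942). The common gamma chain LAMC1 was 1.48-fold higher in ACHN. NPNT and TINAGL1, which bind integrins and laminins, were 1707-fold and 461-fold higher in ACHN.

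Of 26 integrins, the receptors of these proteins, 22 were tested, 9 were higher in A-498 and 10 in ACHN, 6 each by at least 2-fold. The 2-fold share was thus 27.3% in each direction, against 21.6% and 16.5% of all genes. ITGB4, the partner of ITGA6 in a laminin receptor, was at 0.234 and 0.198 CPM in A-498 and 16.0, 18.9 and 19.8 CPM in ACHN (-6.38 ± 0.164, edgeR adjusted p = 2.73e-18). ITGA3, another laminin receptor chain, was 2.93-fold higher in ACHN. The vitronectin receptor chains ITGAV and ITGB3 were 2.18-fold and 6.15-fold higher in A-498.

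Growth factor ligands differed in both directions. Of 41 ligands and related genes, 33 were tested. In A-498 16 were higher, 10 by at least 2-fold (30.3%, against 21.6% of all genes). In ACHN 15 were higher, 14 by at least 2-fold (42.4%, against 16.5% of all genes). Ligands of the EGF receptor were higher in ACHN as a group of named members: EREG was at 0.468 and 0.363 CPM against 172, 180.3 and 168 CPM (-8.70 ± 0.0899, edgeR adjusted p = 1.58e-24), HBEGF was 18.2-fold, BTC 17.5-fold and AREG 13.3-fold higher in ACHN. EGF and TGFA were the exceptions, 6.15-fold and 0.84 on the log2 scale higher in A-498. The activin subunits went opposite ways. INHBB was found in A-498 only, as above, and INHBA was at 15.0 and 14.2 CPM in A-498 and 392, 403 and 368 CPM in ACHN (-4.73 ± 0.0541, edgeR adjusted p = 7.65e-24).

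EGFR itself was at 486 and 493 CPM in A-498 and 433, 479.6 and 443 CPM in ACHN, a small difference (0.12 ± 0.041, edgeR adjusted p = 0.0142) that did not hold without A-498 replicate 3 (adjusted p = 0.0963), ACHN replicate 1 (0.111) or ACHN replicate 3 (0.0646). Of 56 receptor tyrosine kinases, 42 were tested, 18 were higher in A-498 (16 by at least 2-fold) and 20 in ACHN (11 by at least 2-fold), and the median was -0.15. The 2-fold shares were 38.1% and 26.2%, against 21.6% and 16.5% of all genes. MET, the receptor of hepatocyte growth factor, was at 988 and 992 CPM against 1494, 1526 and 1490.4 CPM (-0.60 ± 0.0359, edgeR adjusted p = 3.45e-12). AXL was 3.08-fold, PTK7 44.7-fold and EPHB1 41.5-fold higher in ACHN. The insulin receptor INSR was at 16.0 and 15.6 CPM against 0.434, 0.454 and 0.502 CPM (5.09 ± 0.12, edgeR adjusted p = 6.98e-19), and FGFR4 was 3.98-fold higher in A-498.

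Inflammatory ligands were also line-specific. Of 40 chemokines and cytokines, 29 were tested, 13 were higher in A-498 (12 by at least 2-fold, 41.4%) and 16 in ACHN (10 by at least 2-fold, 34.5%). The 2-fold shares over all genes were 21.6% and 16.5%. The neutrophil chemokines were higher in the ACHN controls: CXCL1 was at 0.829 and 0.825 CPM against 59.7, 59.0 and 56.5 CPM (-6.14 ± 0.091, edgeR adjusted p = 3.56e-22), CXCL2 was 11.3-fold higher and CXCL8 9.54-fold higher (46.0, 47.5 and 34.7 CPM in ACHN). CXCL3 had a log2 difference of -2.14. Between the miR-29 mimic and inhibitor libraries CXCL3 turned (0.76) and CXCL8 lost its call (-0.06), while CXCL1 (-3.85) and CXCL2 (-1.12) kept their direction. IL6 was 4.03-fold and CSF2 61.1-fold higher in ACHN. CSF1, which recruits macrophages, was at 277 and 253 CPM against 28.9, 28.9 and 26.7 CPM (3.23 ± 0.0489, edgeR adjusted p = 4.74e-22), the adhesion molecule ICAM1 was 26.6-fold higher in A-498, and CCL26, an eosinophil attractant, was at least 231-fold higher in A-498.

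Interferon-stimulated genes tended towards A-498. Of the 42 found in the tables, 41 were tested, 26 were higher in A-498 (13 by at least 2-fold, 31.7%) and 8 in ACHN (2 by at least 2-fold, 4.88%), with a median of 0.37. The 2-fold shares over all genes were 21.6% and 16.5%. BST2, which tethers budding viruses, was at 70.8 ± 1.21 CPM (SD, n = 2) in A-498 and 0.0827, 0.0477 and 0.126 CPM in ACHN (9.67 ± 0.12, edgeR adjusted p = 2.57e-23). IFI27 was 138-fold higher, and XAF1 was at 23.9 and 28.2 CPM with at most 1 read in an ACHN library. IFITM2, which restricts virus entry, was the other way, 23.2-fold higher in ACHN. ISG15, IFITM3 and OAS1 did not pass the test.

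Antigen presentation genes tended towards ACHN: of 34, 32 were tested, 11 were higher in A-498 (4 by at least 2-fold) and 18 in ACHN (11 by at least 2-fold, 34.4%). Class II genes were involved in both directions. HLA-DPA1 and the invariant chain CD74 were 91.2-fold and 39.7-fold higher in ACHN, whereas HLA-DRA (2.23 CPM in A-498 and 0 reads in ACHN) and the class II activator CIITA were higher in A-498. The checkpoint ligands CD274 (PD-L1) and PDCD1LG2 (PD-L2) were 5.25-fold and 64.4-fold higher in ACHN. The immunoproteasome subunit PSMB9 and the peptide transporter TAP1 were 2.53-fold and 1.77-fold higher in ACHN, B2M was 1.53-fold higher in A-498, and the trimming peptidase ERAP2 was 6.99-fold higher in A-498. HLA genes vary between people and resemble each other, so reads may be lost or shared in ways that differ between the lines.

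Proliferation genes differed modestly. Of 44 S phase genes, all tested, 10 were higher in A-498 and 24 in ACHN, but only 1 and 5 by at least 2-fold. Of 40 genes of G2 and mitosis, 8 were higher in A-498 and 26 in ACHN, 0 and 5 by at least 2-fold, with a median of -0.33. MKI67, the proliferation marker, was at 165 and 169 CPM in A-498 and 363, 339.9 and 334 CPM in ACHN (-1.05 ± 0.041, edgeR adjusted p = 2.89e-15), whereas TOP2A did not pass the test (0.03 ± 0.0358, edgeR adjusted p = 0.384). RFC5, POLE and CDC25A were 3.42-fold, 2.61-fold and 2.74-fold higher in ACHN, and E2F1 2.4-fold higher in A-498. Growth rates were not measured.

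Of 30 p53 target genes, all tested, 5 were higher in A-498 and 20 in ACHN, against 41.0% and 38.7% of all genes. By at least 2-fold it was 2 each (6.67%, against 21.6% and 16.5% of all genes), and the median was -0.21. MDM2, which degrades p53, was 1.81-fold and TIGAR 3.44-fold higher in ACHN, and the cell cycle inhibitor CDKN1A did not pass the test (302 and 283 CPM against 281, 290.3 and 258 CPM).

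Lipid genes were higher in A-498. Clear cell carcinoma takes its name from stored lipid and glycogen. Of 40 sterol and lipid droplet genes, 39 were tested, 25 were higher in A-498 (11 by at least 2-fold, 28.2%) and 10 in ACHN (1 by at least 2-fold, 2.56%), with a median of 0.46. The 2-fold shares over all genes were 21.6% and 16.5%. The desaturases SCD and FADS2 were 9.75-fold and 7.11-fold higher; SCD was at 2572 and 2612 CPM against 265, 254 and 278 CPM (3.29 ± 0.041, edgeR adjusted p = 2.95e-23). The droplet coat protein PLIN2 was at 759.7 and 744 CPM against 104, 97.7 and 95.8 CPM, and the triglyceride synthase DGAT2 was 13.4-fold higher. FASN, the fatty acid synthase, was 1.59-fold higher in ACHN.

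Of 28 glycolysis genes, 26 were tested, 12 were higher in A-498 (6 by at least 2-fold, 23.1%) and 11 in ACHN (4 by at least 2-fold, 15.4%), shares close to the 21.6% and 16.5% of all genes. The aldolase ALDOC was 25.2-fold higher in A-498, and the enolases ENO2 and ENO3 were 15.4-fold and 11.5-fold higher in ACHN, as was GAPDH (1.67-fold). Of 13 mitochondrially encoded genes, 9 were higher in A-498 and 3 in ACHN (MT-ND1, MT-ND2 and MT-ND5), none by 2-fold, with mitochondrial genes taking 1.08% and 1.09% of reads in A-498 and 0.77% to 0.82% in ACHN. At any fold 41.0% and 38.7% of all genes were higher in A-498 and ACHN.

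HOX genes, which keep a record of position along the body axis, differed by cluster. Of 39, 36 were tested, 11 were higher in A-498 and 19 in ACHN, against 41.0% and 38.7% of all genes. By at least 2-fold the shares were 22.2% and 38.9%, against 21.6% and 16.5% of all genes. In the HOXB and HOXC clusters, 7 of 9 and 7 of 8 tested genes were higher in ACHN (medians -1.36 and -1.41), whereas in the HOXD cluster 5 of 8 were higher in A-498 (median 1.09) and in the HOXA cluster 4 of 11 were higher in each line. HOXB13 was at 8.52, 8.59 and 8.04 CPM in ACHN with 1 read in each A-498 library (ratio of pooled counts 487, exact 95% interval 135 to 4030.3). HOXA11 and HOXD10 were 7.95-fold and 8.35-fold higher in A-498. Of 62 cancer-testis antigen genes, only PRAME was tested (156 and 151 CPM against 73.4, 68.8 and 76.6 CPM, 1.07 ± 0.0459, edgeR adjusted p = 1.36e-14), and 49 had 0 reads in all 5 libraries; many are near copies of each other.

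The differences were not spread evenly over the chromosomes. Over all protein-coding genes tested the median log2 difference was 0.02, and by chromosome it ran from -0.78 to 0.67. Chromosome 12 stood lowest: of 757 tested genes, 291 (38.4%) were at least 2-fold higher in ACHN and 80 (10.6%) in A-498. Chromosomes 9 (563 genes) and 8 (490 genes) stood highest at 0.67 and 0.66, with 33.9% of the genes on each at least 2-fold higher in A-498. Several genes named above lie on chromosome 12 and were higher in ACHN, among them CCND2, CDK4, MDM2, GAPDH, ENO2, KRT7, KRT8, KRT18, RFC5, POLE and TIGAR. Others lie on chromosome 8 (CA2 and NEFL) or 9 (CA9, PLIN2, COL5A1 and MTAP) and were higher in A-498. CDKN2A, CDKN2B and PDCD1LG2, also on chromosome 9, were higher in ACHN. The part that a chromosome's overall level has in each of these genes was not tested.

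**Figure D5:**
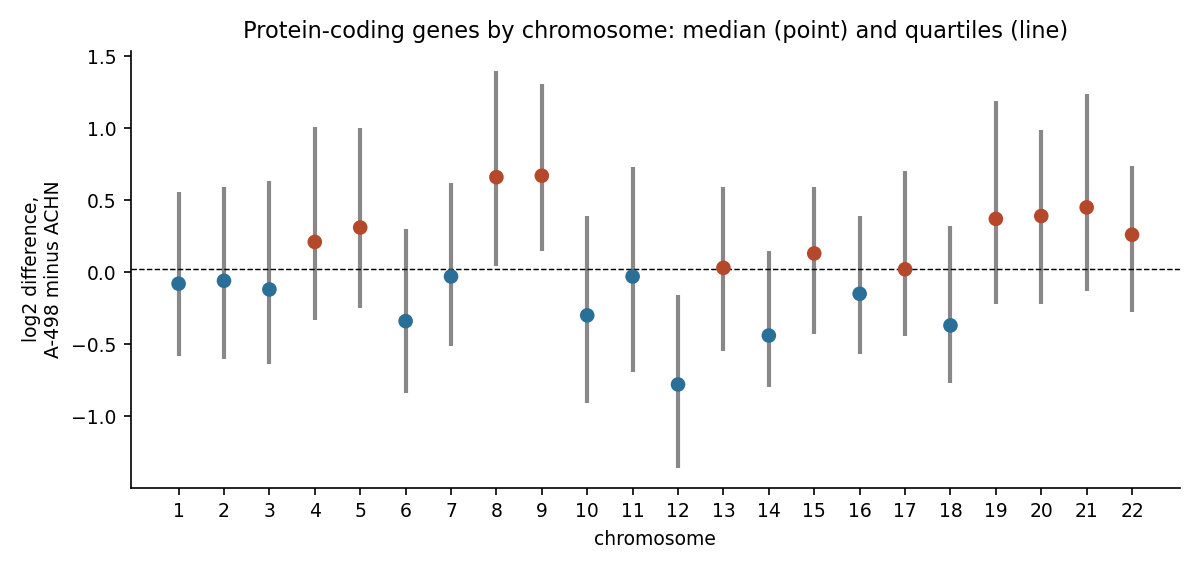
Median (point) and quartiles (line) of the log2 difference, A-498 control minus ACHN control, over the protein-coding genes tested on each autosome. Chromosome 12 lies below the rest at -0.78, and chromosomes 8 and 9 above at 0.66 and 0.67, with the dashed line at the median of all these genes, 0.02.

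The same contrast could be drawn between libraries that did not enter the test above, the 2 A-498 libraries given the miR-29 mimic and the 3 ACHN libraries given the miR-29 inhibitor, where miR-29 was changed in opposite directions in the lines. Of 7342 genes with at least a 2-fold difference between the controls that were tested in both contrasts, 6756 (92.0%) were called in the same direction and 118 (1.61%) in the opposite one. Among the 23 NRF2 target genes of this kind, 23 kept their direction, and 23 of 25 HIF target genes did. Among 23 known miR-29 targets, 16 kept their direction and 6 (26.1%) turned.

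SPARC went from 2.68 to -1.83 on the log2 scale, LOXL2 from 2.44 to -2.17 and COL1A1 from 3.45 to -0.93, each passing the test in both contrasts. COL4A1 kept its direction and went from -0.41 to -4.48, LAMC1 from -0.56 to -2.61 and CDK6 from -1.41 to -3.73. COL5A1 (10.52 and 10.20) and CCND2 had the same direction in both. Differences at MTAP, CDKN2B, HNF4A, CLDN16 and the aldo-keto reductases were likewise in the same direction in both sets of libraries.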

How the data were processed

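The authors aligned paired reads to GRCh38 with HISAT2 and deposited raw counts per gene (Ensembl v87 annotation), made with HTSeq in its strict intersection mode for reverse-stranded reads. Counts were used as deposited, without the 5 summary lines for reads in no single gene, which took 37.2% to 40.6% of all reads in the 5 libraries compared. Symbols came from GENCODE v44 (56948 of 58051 genes). The authors' DESeq2 tables hold their own fold changes and p-values and were not used, and A-498 libraries that the study set aside for doubtful labels were not analysed here.

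Counts were tested with edgeR 4.0.16 in R 4.3.3 (filterByExpr, TMM, quasi-likelihood test, Benjamini-Hochberg adjustment over all genes tested), with line as the only term. Genes with an adjusted p under 0.05 were called. On simulated counts with known changes the script was tested before use. Alternatives were DESeq2 1.42.0, other scalings and filters, a replicate block, the miR-29 libraries, and leaving out each library. No library was a copy of another, since replicate counts varied beyond sampling noise (3.87 to 6.54 times the variance of counting alone, from chi-square). Same-numbered libraries of the lines did not deviate together (correlations -0.024 and -0.045). Without molecular identifiers, intervals and bounds cover counting error only.

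The genes named were the 10 protein-coding genes per line with the largest log2 difference (20 CPM or more in every library of the higher line, no overlap), up to 3 genes per line and list among those called at 2-fold or more with 5 CPM or more, and a panel of 34 genes; other genes named are members of the lists. The comparison and the 34 gene lists, written from general knowledge, were chosen with earlier results of these data known. Y-linked genes and XIST were left out, and some genes that these rules name are not reported here. Promoter windows and microRNAs are RefSeq sequences (GRCh38.p14).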

Additional observations from a re-analysis of the deposited data

How the results depend on the processing

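The counts of genes called, in all and in each direction, stayed within 1.5 times of the values above under every alternative run: other scalings, no or a stricter filter, protein-coding genes alone, DESeq2, an adjusted p under 0.01, 10 libraries sharing one spread, the miR-29 libraries, and leaving out each library. With the replicate number as a block, 14766 genes were called, and none of the 167 genes chosen by the naming rule lost its call; the libraries share only numbers, so this is no pairing. No alternative moved the median of all genes by over 0.05 on the log2 scale. The number of genes read in 1 line only did depend on its limits: with up to 10 reads allowed in the other line it was 588 in A-498 and 384 in ACHN, and with at least 5 CPM required it was 141 and 106. In the miR-29 libraries 6 of these 167 genes turned: SPARC (-1.83), COL1A1 (-0.93), EGFR (-1.06), CDH2 (-0.13), CCND1 (0.21) and VIM (0.51), and CXCL8 (-0.06), GADD45A (-0.06) and GATM (-0.14) lost their call. Other genes named in the text turned there too: LOXL2 (-2.17), CXCL3 (0.76), FASN (0.48), KRT18 (0.15) and SLC2A1 (-0.14) with a call. HILPDA (-0.1), WNK4 (0.13) and SLC34A1 (0.29) turned without a call. CD14 (0.88), DNMT3B (0.07), B2M (0.09), KRT8 (-0.08), MT-ND1 (-0.08) and SLC13A3 (-0.03) lost their call. The cause was not tested. EGFR was also lost under a stricter filter (0.07). Depth limits genes under about 0.1 CPM, where a library holds only a few reads.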

Other observations

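Genes that belong to none of the lists above were looked at after their values had been seen, and are given as values. Metallothioneins, which bind metals, were higher in ACHN beyond MT1E and MT1M: MT2A was at 29.3 and 21.6 CPM in A-498 and 914, 853 and 895 CPM in ACHN (-5.12 ± 0.085, edgeR adjusted p = 2.01e-21), MT1A had 0 reads in A-498 and 10.9, 9.38 and 9.52 CPM in ACHN, and MT1X was at 1.96 and 1.85 CPM against 9.78, 9.74 and 10.7 CPM. The family's members are near copies, so the split between them is uncertain. Glutathione transferases, which join glutathione to toxic compounds, divided by gene. GSTP1 was found in ACHN only, as above, while GSTM1 had 1029 and 1091 reads in A-498 with 1 read in 1 ACHN library (ratio of pooled counts 2375, exact 95% interval 426 to 93832), GSTM4 was at 41.6 and 40.1 CPM against 1.97, 2.24 and 2.08 CPM, and MGST1 at 521 and 535 CPM against 213, 202 and 198 CPM. GSTM1 belongs to a family of similar genes.

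Several abundant genes of basic metabolism and innate immunity were nearly absent from 1 line. NNT, the mitochondrial transhydrogenase that makes NADPH, was at 121, 123 and 123 CPM in ACHN with 3 and 1 reads in the A-498 libraries (ratio of pooled counts 3552, exact 95% interval 1387 to 13038). GLUL, glutamine synthetase, was at 86.3, 84.4 and 84.1 CPM in ACHN with 2 and 0 reads in A-498. SLFN11, a gene known for its link to sensitivity to DNA-damaging drugs, was at 212, 211 and 211 CPM in ACHN and 0.0901 and 0.198 CPM in A-498 (-10.47 ± 0.0996, edgeR adjusted p = 5.18e-25). The cytosolic DNA sensor CGAS and its partner STING1 went the other way: CGAS was at 21.4 ± 0.471 CPM (SD, n = 2) in A-498 with at most 2 reads in an ACHN library, and STING1 at 38.3 and 36.3 CPM against 0.103, 0.0239 and 0.0754 CPM.

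The single 786-O library given a control mimic, which enters no comparison here, had 0 reads of CDKN2A and of CDKN2B, as in A-498, and 1284 reads of MTAP.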
